A study of Mus musculus with 8 samples.

Results

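The GIMAP family, the GTPases of immunity-associated proteins, was followed through 6 genes, Gimap1, Gimap4, Gimap5, Gimap6, Gimap8 and Gimap9, taken by symbol from the 27998 genes of the count tables. The tables hold 8 genes whose symbol starts with Gimap, and the other two, Gimap3 and Gimap7, are described at the end. The counts came from droplet single-cell RNA sequencing of Lin- c-Kit+ (LK) bone marrow cells, the stem and progenitor compartment, to which sorted LK CD150+ CD48- CD34- hematopoietic stem cells (HSCs) had been added. All mice were wildtype and 12 to 14 weeks old. Control mice had received 100 µl of PBS, and treated mice IFNα under the skin (50000 IU for each 20 g of mouse) and were studied after 3, 24 or 72 h. Cells of the 4 mice of each group carried hashtag antibodies, were pooled before sorting and made 1 library, so that time point and library cannot be told apart, and the added HSCs set part of the share of stem cells.

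GIMAP proteins are small GTPases encoded by a single gene cluster and known mainly from lymphocytes, where several of them act on survival. Gimap1 is needed for mature T and B lymphocytes, Gimap4 is linked to lymphocyte apoptosis, and Gimap8 carries repeated GTPase domains. Gimap5 is needed for lymphocyte survival and for quiescence of HSCs, and Gimap6 binds the autophagy protein Gabarapl2. IFNα acts through its receptor and STAT transcription factors on genes whose promoters often hold an interferon-stimulated response element (ISRE).

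The 8 Gimap genes occupy 123.618 kb of chromosome 6 (GRCm38, the assembly also named mm10, with GENCODE vM21 gene models). In the order of the chromosome, the members are Gimap8 (ENSMUSG00000064262, chr6:48647234-48660875, plus strand), Gimap9 (ENSMUSG00000051124, chr6:48676129-48679114, plus), Gimap4 (ENSMUSG00000054435, chr6:48684549-48692060, plus), Gimap6 (ENSMUSG00000047867, chr6:48701582-48708225, minus), Gimap1 (ENSMUSG00000090019, chr6:48739054-48743795, plus) and Gimap5 (ENSMUSG00000043505, chr6:48746197-48754210, plus). Gimap1 and Gimap5 share 198 and 153 exonic bases with Gm28053, a gene model that spans both, and none of these bases lie in the last 500 bases of either gene, where a 3′ library reads. Gimap1os is annotated on the opposite strand of Gimap1.

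RefSeq promoters (GRCm38.p6, 250 bases before to 50 after a start site) were found for 6 of 6 members, at 7 start sites. Those of Gimap8 (the downstream one of its start sites, chr6:48647111-48647410, plus strand), Gimap6 (chr6:48708195-48708494, minus), Gimap1 (chr6:48738797-48739096, plus) and Gimap5 (chr6:48745947-48746246, plus) are shown 5′ to 3′, because the first 3 genes were called lower in stem cells 3 h after IFNα and the neighboring Gimap5 was not. Only the call of Gimap6 held when each mouse was left out in turn. Capitals mark matches to the motifs described after the sequences.
Gimap8: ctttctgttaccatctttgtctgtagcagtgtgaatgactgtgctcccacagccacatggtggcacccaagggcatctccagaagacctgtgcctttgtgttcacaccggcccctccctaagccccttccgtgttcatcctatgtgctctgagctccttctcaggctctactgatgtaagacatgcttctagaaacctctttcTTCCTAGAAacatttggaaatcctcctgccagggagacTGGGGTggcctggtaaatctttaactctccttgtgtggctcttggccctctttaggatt
Gimap6: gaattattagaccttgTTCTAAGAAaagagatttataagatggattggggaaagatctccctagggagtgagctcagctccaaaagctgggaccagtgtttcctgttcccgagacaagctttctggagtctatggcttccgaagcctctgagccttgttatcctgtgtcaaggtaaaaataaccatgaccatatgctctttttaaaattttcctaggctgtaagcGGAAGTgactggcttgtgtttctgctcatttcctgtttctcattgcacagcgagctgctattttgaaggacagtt
Gimap1: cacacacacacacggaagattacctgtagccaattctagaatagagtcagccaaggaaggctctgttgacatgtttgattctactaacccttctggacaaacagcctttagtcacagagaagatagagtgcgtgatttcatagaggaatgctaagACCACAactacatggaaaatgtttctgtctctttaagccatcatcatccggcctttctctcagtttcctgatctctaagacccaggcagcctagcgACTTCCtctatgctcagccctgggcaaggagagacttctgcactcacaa
Gimap5: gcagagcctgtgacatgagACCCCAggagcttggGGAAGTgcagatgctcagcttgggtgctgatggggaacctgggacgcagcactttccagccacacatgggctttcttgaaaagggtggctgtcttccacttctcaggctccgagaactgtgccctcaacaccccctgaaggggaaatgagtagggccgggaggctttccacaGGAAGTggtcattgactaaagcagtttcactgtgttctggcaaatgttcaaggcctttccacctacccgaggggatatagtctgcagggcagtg

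No member promoter held the ISRE letters, GAAA and GAAA with any 2 bases between them, on either strand, which 3.44% of 32851 RefSeq promoters of the same length hold. The letters TTCNNNGAA of the STAT-bound GAS element were found in the downstream promoter of Gimap8, 47 bases before its start site. They were also found in the promoter of Gimap6, 234 bases before the start site, and in 8.30% of all promoters. The ETS letters GGAAGT were found in the promoters of 4 members (Gimap9, Gimap6, Gimap1 and Gimap5) and in 23.8% of all promoters. The RUNX letters TGNGGT were found in 5 of the 7 promoters (those of Gimap8, Gimap9, Gimap4, Gimap1 and Gimap5) and in 45.8% of all promoters. The upstream promoter of Gimap8 (chr6:48646984-48647283) held no match to any of these motifs. Both strands were searched and no matches overlapped. A match describes letters in this window and is not evidence of binding.

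Of 10046 kept cells, 2474 came from control mice and 1661, 3462 and 2449 from the mice at 3, 24 and 72 h, with 58 to 1240 cells and 1102706 to 26446327 unique molecular identifiers (UMIs) per mouse. Control mouse 4 had 58 kept cells. Libraries shared at most 1 cell barcode. Control cells were clustered without the Gimap genes, and classes were named from marker genes. The HSC-like class (1749 cells, 10 to 218 per mouse) was led by Jchain, Ly6a, Ltb and Hlf. The other named classes were LMPP-like (lymphoid-primed multipotent progenitors), MK progenitor-like (megakaryocyte), myeloid progenitor-like, erythroid progenitor-like and Ba/MC/Eo progenitor-like (basophil, mast cell, eosinophil). Clusters 7 (Gzmb, Scin), 10 (the mitotic genes Nusap1 and Mki67) and 13 (Cd74, H2-Aa) remained unnamed. In HSC-like cells 8 of 8 listed interferon genes were higher at 3 h by edgeR's quasi-likelihood test (10.3% of 9218 genes were higher), with Isg15, a ubiquitin-like modifier, up by 5.07 on the log2 scale. At 24 h 6 of 8 were higher, and at 72 h 3 were lower and none higher.

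In control mice Gimap1, Gimap6, Gimap5 and Gimap8 had their highest mean level in the HSC-like class, while Gimap9 was spread over the compartment and Gimap4 was nearly absent from it. Levels are counts per 1000000 UMIs (CPM), scaled by TMM factors. For these baseline levels the factors were computed over all classes of the control mice together. For the time courses below they were computed within each set of cells over all mice, so levels of the same control mice differ slightly. Classes are cut from the same cells, so these levels are a description and were not tested.

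Gimap1 was the member with the most UMIs, 13623 over all kept cells. In HSC-like cells of control mice 1 to 4 it stood at 257, 272, 246 and 229 CPM (251 ± 18.1, SD, n = 4). MK progenitor-like cells followed at 121 ± 13.4 (n = 3), cluster 10 at 96.2 ± 16.3 (n = 3) and LMPP-like cells at 92.3 ± 2.15 (n = 4). No mouse of another class reached the HSC-like range, the nearest being 131, whereas MK progenitor-like cells (106 to 131) overlapped cluster 10 (77.8 to 109), which overlapped LMPP-like cells (89.1 to 93.9). LMPP-like cells pool clusters 4 and 6, and Hlf and Gimap1 were among the 10 genes of largest fold in cluster 6. These clusters were not summed apart. Erythroid progenitor-like cells held 9.91 to 19.4 (n = 3) and myeloid progenitor-like cells 4.72 ± 0.489 (n = 4).

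Gimap6 stood at 139, 177, 149 and 158 CPM in HSC-like cells of the 4 control mice (156 ± 16.2, n = 4). Cluster 10 (58.7 ± 12.9), LMPP-like cells (52.5 ± 8.76) and MK progenitor-like cells (49.8 ± 10.4) followed with overlapping ranges, all below the HSC-like one. Myeloid progenitor-like cells held 2.09 ± 0.956.

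Gimap5 stood at 51.8, 72.7, 49.0 and 52.8 CPM in the HSC-like cells of the control mice (56.6 ± 10.9, n = 4). MK progenitor-like cells held 32.8 ± 6.98 (27.3 to 40.6, n = 3), below the lowest HSC-like value. LMPP-like cells held 14.4 ± 0.527 and myeloid progenitor-like cells 0.529 ± 0.545.

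Gimap8, the member with the lowest level of these 4 in this class, stood at 23.4, 22.3, 20.3 and 0 CPM in the HSC-like cells of the control mice (16.5 ± 11.1, n = 4). The 0 belongs to control mouse 4, whose 10 HSC-like cells hold 98467 UMIs, so that it allows up to 30.5 CPM (3 UMIs, counting error only) and is not distinguishable from the other three. MK progenitor-like cells held 4.58 ± 2.08, LMPP-like cells 2.07 ± 1.54, and 1 UMI was found among all control myeloid progenitor-like cells.

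Gimap9 stood at 55.3, 49.2, 44.4 and 17.6 CPM in HSC-like cells (41.6 ± 16.6, n = 4). The means ran from 56.2 in Ba/MC/Eo progenitor-like cells and 52.3 in cluster 7 through 39.4 in LMPP-like and 34.7 in erythroid progenitor-like cells to 16.7 in myeloid progenitor-like cells and 12.8 in cluster 13. The HSC-like range of Gimap9 overlapped that of each other class, for some only through control mouse 4, whose 17.6 CPM rests on 2 UMIs. Control mice 1 to 3 (44.4 to 55.3) lay above MK progenitor-like (35.6 to 40.9), erythroid progenitor-like (30.5 to 37.2) and myeloid progenitor-like cells (12.3 to 27.5) and cluster 13 (0 to 29.9). They overlapped LMPP-like cells, clusters 7 and 10 and Ba/MC/Eo progenitor-like cells.

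Gimap4 had 135 UMIs in all kept cells, 46 of them in control mice. Its highest control level was in cluster 13, at 39.5 ± 8.64 CPM (n = 3, 20 UMIs), and all 20 UMIs lay in 5 cells that held a defining marker of T, B, NK or endothelial cells (among them Cd3d, Cd3e, Cd3g, Cd79a, Ms4a1, Pax5, Ncr1 and Cdh5). HSC-like cells held 17 UMIs (3.40 ± 3.53, n = 4) and MK progenitor-like cells 9. None were found in the other 6 classes, which allows at most 0.121 CPM in myeloid progenitor-like and 0.363 in LMPP-like cells (3 UMIs over the class). Over all libraries 25.2% of Gimap4 UMIs lay in the 87 cells with a defining marker, against 1.34 to 1.92% for the other members.

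**Figure D1:**
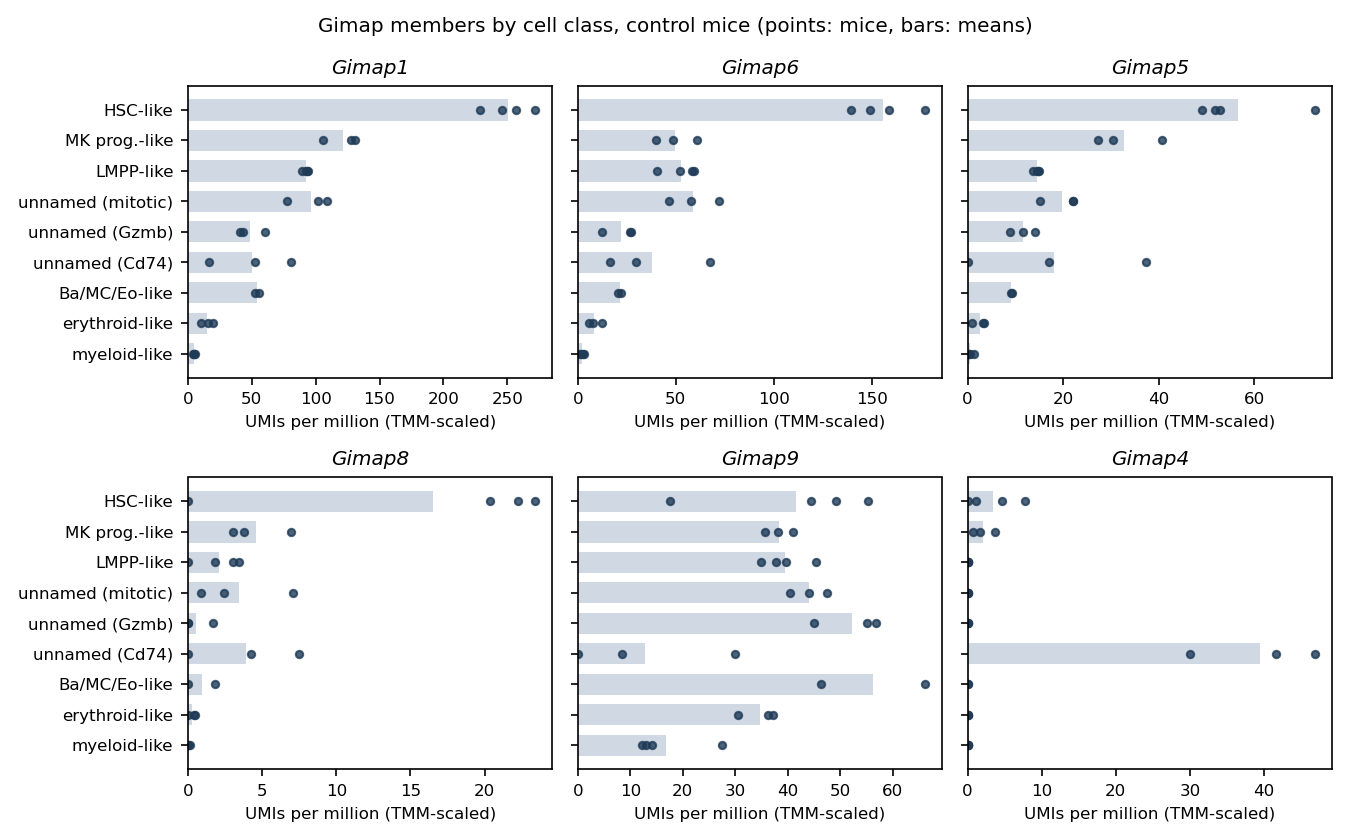
Level of each member in control mice by cell class (horizontal axes, TMM-scaled CPM; points, mice; bars, means). Gimap1, Gimap6, Gimap5 and Gimap8 reach their highest mean in HSC-like cells, Gimap9 does not, and the bar of Gimap4 stands out in cluster 13 (Cd74).

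The HSC-like mean was 3.61 times that of the next class for Gimap8, 2.65 times for Gimap6, 2.07 times for Gimap1 and 1.73 times for Gimap5, but 0.741 times for Gimap9 and 0.0862 times for Gimap4. Leaving out 1 control mouse at a time moved these ratios to between 2.58 and 4.60 for Gimap8, the highest without control mouse 4, and between 1.85 and 2.07 for Gimap1. Of the 6 members, 3 were at least 2 times higher in HSC-like cells than in each other class, against 1.43% of 10274 genes, and 0 were at least 4 times higher, against 0.175%. Gimap8 passed the filter on low counts only through HSC-like cells, and Gimap4 only through cluster 13. These shares therefore describe the levels and are not support for an enrichment. The means were graded, with clear levels in MK progenitor-like and LMPP-like cells. Gimap4 had only 17 UMIs in HSC-like and 9 in MK progenitor-like cells of control mice, so a ratio between them rests on few counts. Without the cells that hold a defining marker its HSC-like level was 2.23 times that of MK progenitor-like cells, at 2.81 against 1.26 CPM. In that setting 5 members passed the filter, and 2 of them were at least 2 times higher, as were 254 of 10995 genes. The ratio of Gimap1 was then 1.97.

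A similar order appeared per cell. Among cells thinned to 5000 UMIs, at least 1 member was detected in 87.2% of control HSC-like cells, 65.6% of cluster 10, 61.0% of MK progenitor-like, 59.6% of LMPP-like cells, 57.9% of cluster 7, 45.0% of Ba/MC/Eo progenitor-like, 28.4% of erythroid progenitor-like cells, 13.8% of cluster 13 and 8.20% of myeloid progenitor-like cells. Before thinning the shares were 94.3% in HSC-like and 39.2% in myeloid progenitor-like cells, the class with the lowest levels of most members, whose cells are deeper (a median of 33823 UMIs against 10744 in HSC-like cells). In HSC-like cells 22.6% held UMIs of 3 or more members after thinning.

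In the HSC-like class the members differed in their course after IFNα. At 3 h Gimap8, Gimap6 and Gimap1 were lower than in control, and Gimap5 and Gimap9 did not pass the test. Of these falls only that of Gimap6 was called without each mouse in turn. At 24 h Gimap6 and Gimap5 were higher than in control. Of 16 fits that left out 1 mouse, the call of Gimap6 at 24 h was lost in 1 and that of Gimap5 in 10. At 72 h no member passed the test. Of the 6 members 5 passed the filter on low counts, and Gimap4, with 71 UMIs in the class, did not. In bulk sums of a class, less RNA per cell and fewer cells of a kind within the class cannot be told apart.

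Gimap6 was the member with the clearest course. Its levels in HSC-like cells were 141, 181, 152 and 168 CPM in control mice 1 to 4 and 99.1, 121, 103 and 119 at 3 h. At 24 h they were 209, 227, 182 and 250.2, and at 72 h 164.5, 158, 180.4 and 197. The 4 mice at 3 h lay below, and the 4 mice at 24 h above, all control mice, whereas those at 72 h overlapped control. Between control and 3 h Gimap6 fell by 0.52 on the log2 scale (SE 0.12, adjusted p = 0.0024, edgeR quasi-likelihood test, 0.700-fold), while 4.79% of 9218 genes were lower. At 24 h it was higher than control by 0.47 (SE 0.10, adjusted p = 0.0026, 1.39-fold), where 2.59% of genes were higher. From 3 h to 24 h it rose by 0.99 (SE 0.11, adjusted p = 3.2e-09), where 4.59% of genes were higher. The fall at 3 h was called without each of the 16 mice in turn (-0.60 to -0.43), while the rise at 24 h missed the threshold without control mouse 1 (0.39, adjusted p = 0.0552). At 72 h the difference from control was 0.16 (95% interval -0.06 to 0.37).

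Gimap8 stood at 23.8, 22.7, 20.8 and 0 CPM in HSC-like cells of the control mice and 9.5, 14.2, 8.16 and 16.3 at 3 h. Each mouse at 3 h lay below the first 3 control mice and above control mouse 4. Its mean at 24 h was 23.4 ± 4.78 and at 72 h 19.4 ± 1.66 (n = 4 each). Between control and 3 h Gimap8 fell by 0.93 (SE 0.30, 95% interval -1.54 to -0.33, adjusted p = 0.0272, 0.523-fold). It rose by 1.04 from 3 h to 24 h (SE 0.27, adjusted p = 0.0049). The call at 3 h was lost without control mouse 1 (adjusted p = 0.104) or 2 (0.0579) or without mouse 1 (0.0598) or 3 (0.201) at 3 h, with values of -0.91 to -0.69, and with DESeq2 (-0.87, adjusted p = 0.160). The rise to 24 h was lost without mouse 3 at 3 h (0.79, adjusted p = 0.101).

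Gimap1 stood at 261, 277, 251 and 243 CPM in HSC-like cells of the control mice, and at 212, 229.7, 217 and 197 at 3 h, below all control mice. At 24 h the values were 280.1, 309.7, 240.0 and 322.5, and at 72 h 278, 244, 245 and 234, both overlapping control. Between control and 3 h Gimap1 fell by 0.29 (SE 0.10, adjusted p = 0.0401, 0.820-fold), and it rose by 0.43 from 3 h to 24 h (SE 0.09, adjusted p = 0.0004). The call at 3 h lay near the threshold. It was lost without control mouse 1 (adjusted p = 0.0781), 2 (0.131) or 3 (0.0549) or without mouse 1 (0.0752), 3 (0.0807) or 4 (0.110) at 3 h, with values of -0.31 to -0.25, and with DESeq2 (-0.27, adjusted p = 0.123) or the likelihood ratio test of edgeR (-0.29, adjusted p = 0.0501).

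Gimap5, which lies next to Gimap1, did not fall. Its HSC-like values were 52.7, 74.1, 50.1 and 56.1 CPM in control and 62.9, 78.7, 70.2 and 86.7 at 3 h. At 24 h they were 81.0, 81.7, 66.8 and 89.9, and at 72 h 78.9, 78.6, 65.9 and 68.6. Control mouse 2 lay within the range of the treated mice at each time, and the other 3 control mice below all treated mice. At 3 h Gimap5 was 0.36 from control (SE 0.16, adjusted p = 0.123), and without control mouse 2 this passed (0.52, adjusted p = 0.0306). At 24 h it was higher by 0.47 (SE 0.14, adjusted p = 0.0418, 1.39-fold), a call that was lost in 10 of 16 fits that left out 1 mouse, namely control mice 1, 3 or 4, mouse 3 at 3 h, mice 1, 2 or 4 at 24 h and mice 1, 2 or 3 at 72 h (0.38 to 0.47, adjusted p = 0.0502 to 0.274). At 72 h the difference was 0.34 (95% interval 0.06 to 0.63, adjusted p = 0.248).

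Gimap9 averaged 42.6 ± 16.6 CPM in HSC-like cells in control, 44.3 ± 12.7 at 3 h and 52.7 ± 9.74 at 72 h (n = 4 each) and ranged from 50.1 to 65.3 at 24 h, with overlap at each time. Its differences from control were -0.16, 0.17 and 0.10, with 95% intervals of -0.55 to 0.23, -0.16 to 0.49 and -0.24 to 0.43. At 3 h the mean over mice was above control while the fitted difference was below 0. Gimap4 had 17, 6, 29 and 19 UMIs in the class, and its values overlapped throughout.

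Counted over the class, 3 of the 5 tested members were lower and 0 higher at 3 h, where 15.1% of genes were called in either direction and 4.79% were lower. The members' median difference was -0.29 at 3 h against -0.04 over all 9218 genes, 0.17 against -0.01 at 24 h and 0.10 against -0.01 at 72 h. At 24 h 2 of 5 were higher (2.59% of genes), and against 3 h 3 of 5 were higher (4.59% of genes). At 72 h 0 of 5 were called by edgeR and by DESeq2, where 3.42% of genes were called, and 1 had an unadjusted p under 0.05. Among cells with an Hlf UMI, a wider set that takes in other classes, Gimap1 (0.26, adjusted p = 0.0125), Gimap5 (0.50, adjusted p = 0.0009) and Gimap6 (0.50, adjusted p = 0.0012) were higher at 72 h. The share of all genes called in that set is not given here, so these calls cannot be set against a background. In HSC-like cells 0 of 5 were called by either tool between 24 and 72 h (2.2% of genes) and 2 had an unadjusted p under 0.05, with Gimap6 nearest to the threshold (-0.32, adjusted p = 0.0572).

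**Figure D2:**
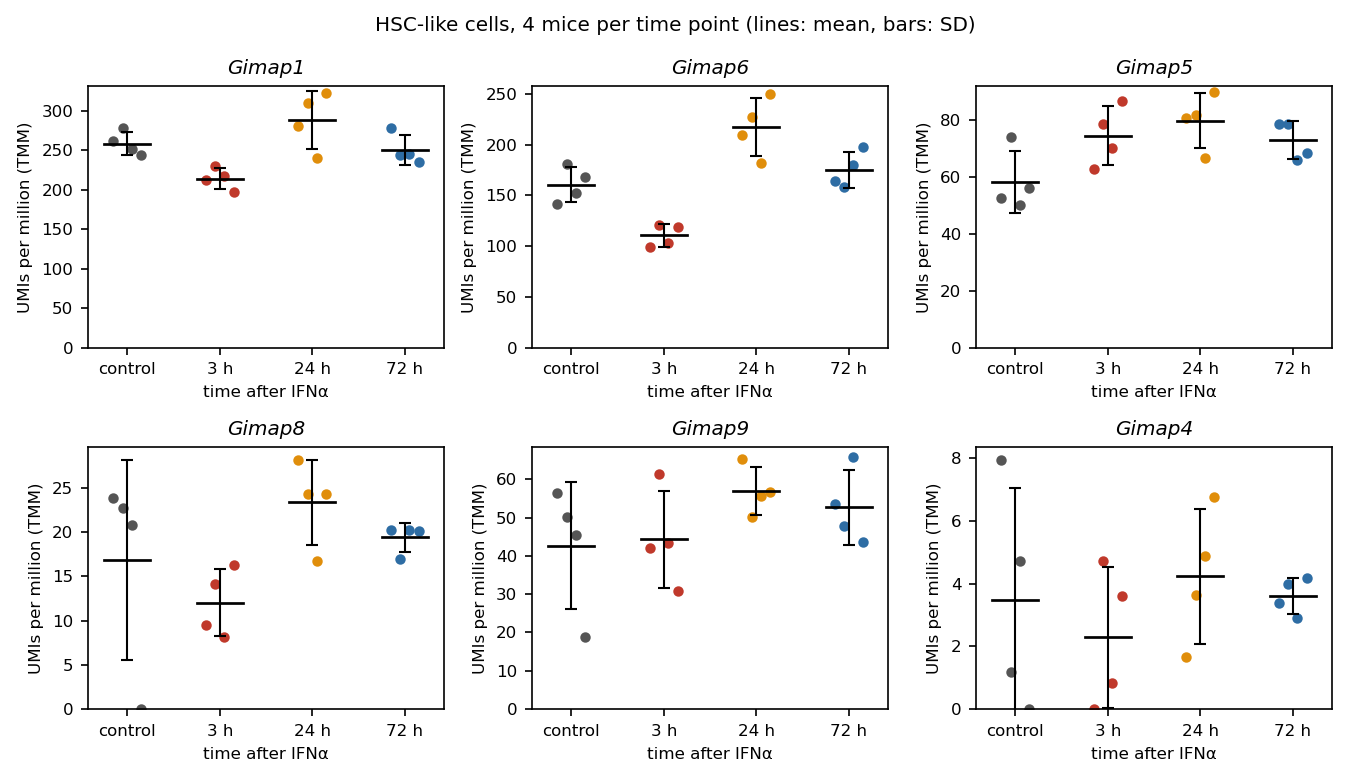
Level of each member in HSC-like cells by time after IFNα (vertical axes, TMM-scaled CPM; points, 4 mice per group; lines, means; bars, SD). Gimap6 lies below control at 3 h and above it at 24 h in every mouse, Gimap1 lies below control at 3 h, and Gimap5 has no fall.

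The falls at 3 h were not called in a wider set of cells, those with an Hlf UMI. Among cells with at least 1 UMI of Hlf, a stem cell transcription factor, Gimap6 differed from control by -0.03 (adjusted p = 0.892), Gimap8 by -0.32 (adjusted p = 0.471) and Gimap1 by 0.19 (adjusted p = 0.0823) at 3 h. By the same test Gimap5 was higher in this set at 3 h (0.67, adjusted p = 7.1e-05), and Gimap9 was not called (-0.27, adjusted p = 0.119). The share of all genes called in this set is not given here. Cells with an Hlf UMI were more numerous (25 to 590 per mouse) and held Gimap1 at 128 CPM in control. Hlf averaged 341 CPM in HSC-like, 88.1 in LMPP-like and 89.6 in MK progenitor-like cells of control mice, so this set mixes classes. Its make-up at each time was not tested. Hlf itself was lower in HSC-like cells at 3 h (-0.38, adjusted p = 0.0075). Over all kept control cells, cells with an Hlf UMI held 14.9 times the Gimap8 level of cells without, 7.36 times that of Gimap6, 6.12 times that of Gimap1, 5.73 times that of Gimap5, 1.60 times that of Gimap9 and 1.45 times that of Gimap4.

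Summed B cell markers lay below control at 3 h, and T cell markers overlapped it. The 6 listed B cell markers summed to 50.8 to 114 CPM in HSC-like cells of control mice, 28.3 to 37.1 at 3 h, 39.6 to 57.1 at 24 h and 36.9 to 49.5 at 72 h, and Cd79a, Ms4a1, Ebf1 and Pax5 were among those at 0 at 3 h. The 7 T cell markers ranged from 15.7 to 21.7 in control and from 9.44 to 26.3 at 3 h, a range that encloses that of control. Of these, Cd3d, Cd3e, Cd3g and Cd8a were at 0 at 3 h and Cd8a and Themis at 0 in control. Cells with a defining marker numbered 8, 0, 4 and 7 in the HSC-like class in control and at 3, 24 and 72 h. Without them the difference at 3 h was -0.47 for Gimap6 (adjusted p = 0.0072), -0.89 for Gimap8 (adjusted p = 0.0398) and -0.25 for Gimap1 (adjusted p = 0.0736). The 4 NK cell markers ranged from 81.2 to 177 in control and 90.4 to 124 at 3 h, the endothelial and macrophage markers from 0 to 10.2 in both. Median depth of HSC-like cells was 10744, 8202.5, 11524 and 10233 UMIs in control and at 3, 24 and 72 h, and its part in the falls was not tested. After thinning to 5000 UMIs, Gimap6 was detected in 48.3% of HSC-like cells in control and in 36.6%, 61.7% and 53.9% at 3, 24 and 72 h, and Gimap1 in 66.7%, 57.7%, 70.9% and 64.9%.

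Over the whole compartment the picture differed, since members were higher at each time and none was lower (19.2%, 13.8% and 18.5% of 12042 genes were lower at 3, 24 and 72 h). Gimap1 stood at 54.9, 48.9, 47.7 and 54.8 CPM in control mice and at 58.6, 70.0, 77.3 and 63.2 at 3 h. Its values were 70.4, 88.9, 72.3 and 68.0 at 24 h and 81.2, 70.7, 74.6 and 72.0 at 72 h. All treated mice lay above all control mice. Gimap1 was higher by 0.42 at 3 h (SE 0.09, adjusted p = 0.0010), 0.57 at 24 h (SE 0.08, adjusted p = 2.9e-05) and 0.56 at 72 h (SE 0.09, adjusted p = 3.1e-05). Gimap5 was likewise above control in every treated mouse, by 0.80, 0.71 and 0.72 (SE 0.12, 0.10 and 0.11).

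Gimap6 averaged 29.0, 29.9, 47.1 and 45.7 CPM over the whole compartment in control and at 3, 24 and 72 h. It did not differ detectably at 3 h (0.13, 95% interval -0.08 to 0.34) and was higher by 0.79 at 24 h and 0.74 at 72 h (adjusted p = 3.0e-07 and 1.1e-06). Gimap9 was higher by 0.37 at 24 h (adjusted p = 0.0007) and 0.32 at 72 h (adjusted p = 0.0025). Gimap8 was higher at 72 h (0.73, SE 0.21, adjusted p = 0.0083), with 0.49 at 24 h (adjusted p = 0.0672). Gimap4 was called at no time, with 0.607, 0.823, 0.524 and 0.652 CPM.

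In all, 2 of 6 members were higher at 3 h, 4 at 24 h and 5 at 72 h, where 19.7%, 14.5% and 18.9% of 12042 genes were higher. From 3 h to 24 h Gimap6 and Gimap9 rose (0.66 and 0.31), where 12.3% of genes did. Between 24 and 72 h 0 of 6 were called by edgeR and by DESeq2 and 0 had an unadjusted p under 0.05, where 9.08% of genes were called.

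The cell classes shifted at the same times. HSC-like cells made up 13.2 ± 3.36% of kept cells in control mice, 22.9 ± 2.61% at 3 h and 20.5 ± 1.43% at 72 h (n = 4 each), with 13.4 to 17.6% at 24 h. Myeloid progenitor-like cells, which have the lowest levels of Gimap1, Gimap5, Gimap6 and Gimap8, made up 28.7 ± 2.31%, 16.1 ± 3.18%, 20.0 ± 2.10% and 15.3 ± 2.31%. HSC-like cells contributed 29.0% of the members' UMIs in control mice on average and 40.3%, 33.1% and 39.5% at 3, 24 and 72 h. With HSC-like cells left out, an alternative added after the data were seen, 2, 4 and 5 members were still higher at 3, 24 and 72 h, where 18.4%, 14.2% and 16.8% of 11709 genes were higher. Gimap5 then differed by 0.42, 0.61 and 0.41 and Gimap6 by 0.74 and 0.59 at 24 and 72 h. The part of the myeloid share in these rises was not tested.

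**Figure D3:**
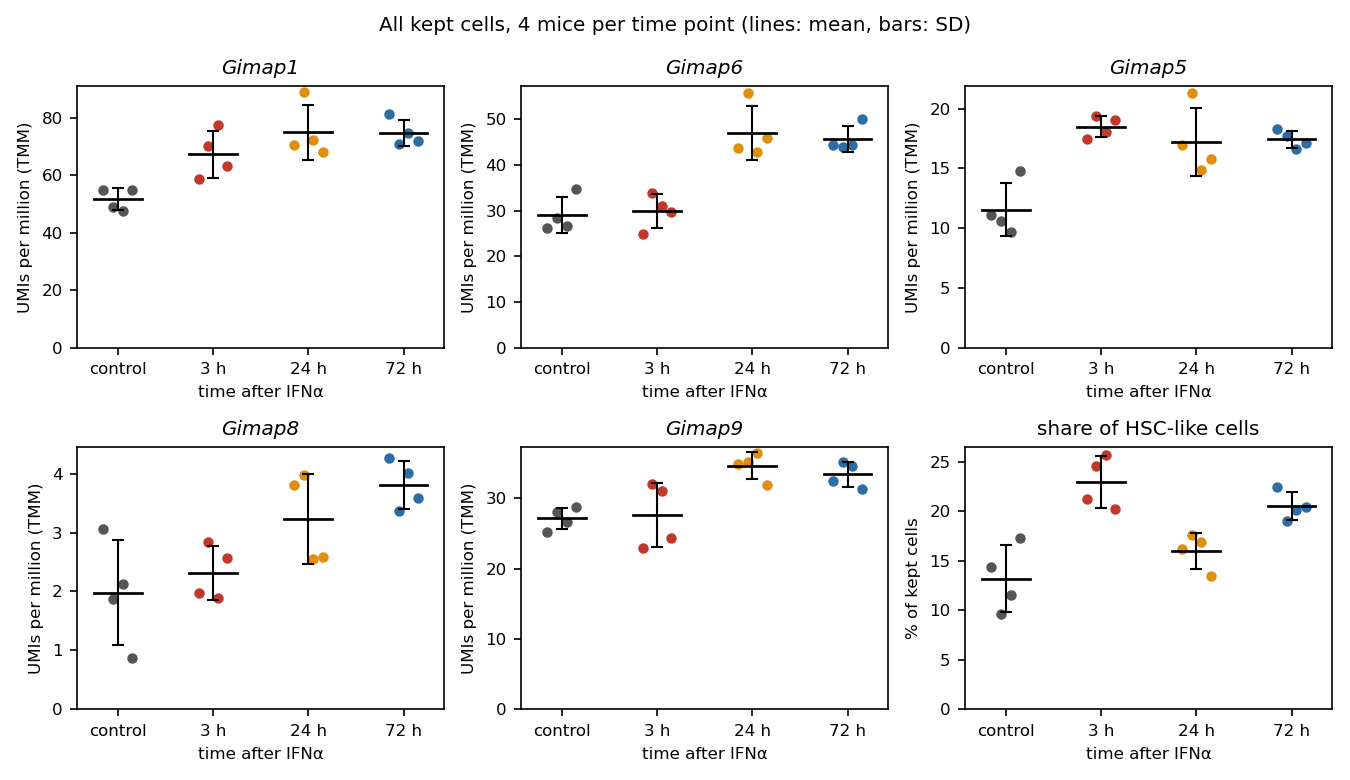
Level of 5 members over all kept cells and the share of HSC-like cells, by time after IFNα (vertical axes, TMM-scaled CPM and % of kept cells; points, 4 mice per group; lines, means; bars, SD). Gimap1 and Gimap5 lie above control in all treated mice, and the share of HSC-like cells is highest at 3 h.

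The change of Gimap1 differed between HSC-like cells and the other cells, here without Ba/MC/Eo progenitor-like cells and cluster 13. The difference of its log2 change, HSC-like minus other cells, was -0.57 at 3 h (SE 0.13, adjusted p = 0.0051), -0.40 at 24 h (SE 0.11, adjusted p = 0.0357) and -0.49 at 72 h (SE 0.11, adjusted p = 0.0116) by edgeR with the mouse as a block. These lay among the 0.905%, 0.896% and 0.672% of 10713 genes with a lower change in HSC-like cells. The other 5 members were not called, with Gimap6 at -0.38, -0.24 and -0.40 (adjusted p = 0.196, 0.381 and 0.0915). The other cells include the myeloid progenitor-like cells, whose share fell over the same times. The call at 3 h was lost without mouse 3 at 3 h (-0.50, adjusted p = 0.0752), that at 24 h without control mice 2 or 3, mice 1, 2 or 4 at 3 h or mice 2 or 3 at 24 h (-0.41 to -0.33, adjusted p = 0.0501 to 0.152), and that at 72 h without control mice 2 or 3 or mouse 4 at 72 h (-0.48 to -0.45, adjusted p = 0.0510 to 0.0659).

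Within the other classes the falls at 3 h recurred for single members, and no member was called higher at 3 h in any of the 5 classes, where the share of genes called higher was 10.3% in HSC-like, 11.7% in LMPP-like, 13.9% in myeloid progenitor-like, 9.61% in erythroid progenitor-like and 8.59% in MK progenitor-like cells. In LMPP-like cells Gimap6 stood at 38.6, 55.7, 50.1 and 59.1 CPM in control and at 30.1, 33.5, 33.9 and 32.3 at 3 h, without overlap. It fell by 0.57 (SE 0.16, adjusted p = 0.0082, 7.09% of 9891 genes lower) and at 24 h was higher than control by 0.44 (SE 0.11, adjusted p = 0.0093, 4.38% of genes higher). Gimap9 was also higher in LMPP-like cells at 24 h, by 0.42 (adjusted p = 0.0128), and both genes rose from 3 h to 24 h (1.01 and 0.68), where 5.81% of genes did. From 24 to 72 h Gimap9, Gimap6 and Gimap1 fell in this class by 0.40, 0.37 and 0.30 on the log2 scale (adjusted p = 0.0234, 0.0455 and 0.0444), where 2.17% of genes were lower. Gimap1 in LMPP-like cells was -0.10, 0.08 and -0.22 from control at 3, 24 and 72 h and was not called. Gimap5 lay above all control mice in this class at 3 h (15.6 to 22.5 CPM against 13.1 to 14.8) and was not called either. At 72 h 0 of 4 tested members were called by edgeR in LMPP-like cells (5.69% of genes in either direction), and 1 had an unadjusted p under 0.05.

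In MK progenitor-like cells Gimap1 stood at 129, 125.5 and 105 CPM in the 3 control mice with enough cells and at 86.5, 74.6, 101 and 94.3 at 3 h, all below control. It fell by 0.44 (SE 0.13, adjusted p = 0.0177, 2.63% of 8870 genes lower) and rose by 0.41 from 3 h to 24 h (adjusted p = 0.0157, 2.18% of genes higher). At 24 and 72 h 0 of 4 were called by edgeR (3.84% and 4.16% of genes), and 0 and 1 had an unadjusted p under 0.05. Gimap5 was -0.59 from control here at 3 h (adjusted p = 0.0952).

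In myeloid progenitor-like cells levels were low, and Gimap1 and Gimap6 were higher at 24 h. Gimap1 stood at 3.9, 3.6, 4.6 and 4.6 CPM in control and at 8.2, 9.3, 5.8 and 6.2 at 24 h, higher by 0.88 (SE 0.23, adjusted p = 0.0059). Gimap6 was higher at 24 h by 1.00 (SE 0.29, adjusted p = 0.0166), from 1.85 ± 0.852 to 3.43 ± 0.572 CPM (n = 4 each). In this class 9.18% of 9721 genes were higher at 24 h. Gimap9, the other tested member, averaged 14.9, 10.3, 14.6 and 13.6 CPM in control and at 3, 24 and 72 h and was not called. At 72 h Gimap1 differed by 0.76 (adjusted p = 0.0553). In this class 0 of 3 members were called by edgeR at 3 and 72 h (24.6% and 15.3% of genes), and 0 and 2 had an unadjusted p under 0.05. In erythroid progenitor-like cells 0 of 3 tested members were called by edgeR at 3, 24 or 72 h, and 0 had an unadjusted p under 0.05 against control, where 13.4%, 9.92% and 5.27% of genes were called at 3, 24 and 72 h.

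**Figure D4:**
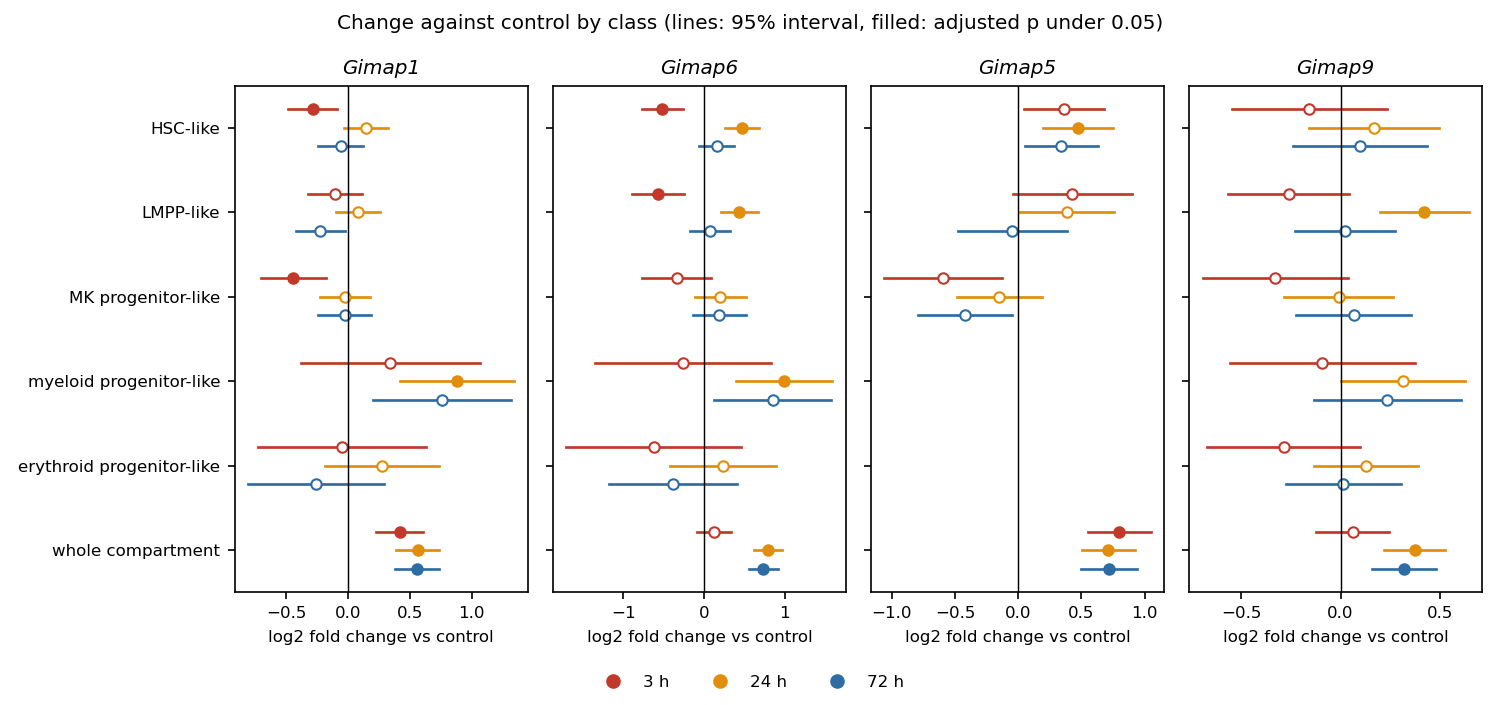
Log2 fold change of 4 members against control by cell class and time (horizontal axes, log2 fold change; points, estimates, filled where the adjusted p is under 0.05; lines, 95% intervals). Gimap6 is lower at 3 h in HSC-like and LMPP-like cells, and Gimap1 in HSC-like and MK progenitor-like cells, while over the whole compartment the filled points lie above 0. Gimap5 was not tested in myeloid and erythroid progenitor-like cells.

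The genes around the cluster were tested in the same fit. Within 500 kb of the family 31 other genes are in the tables, 10 passed the filter in HSC-like cells, and 0 of these were called by edgeR in any of the 5 comparisons, against 15.1%, 3.4% and 3.42% of all genes for the 3 comparisons with control. Among the nearest protein-coding genes, Tmem176b and Tmem176a, membrane proteins of immune cells, were 0.17 and 0.18 from control at 3 h (adjusted p = 0.0689 for Tmem176b). Zfp775, a zinc finger gene on the other side, was -0.96 from control (SE 0.52, adjusted p = 0.240).

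**Figure D5:**
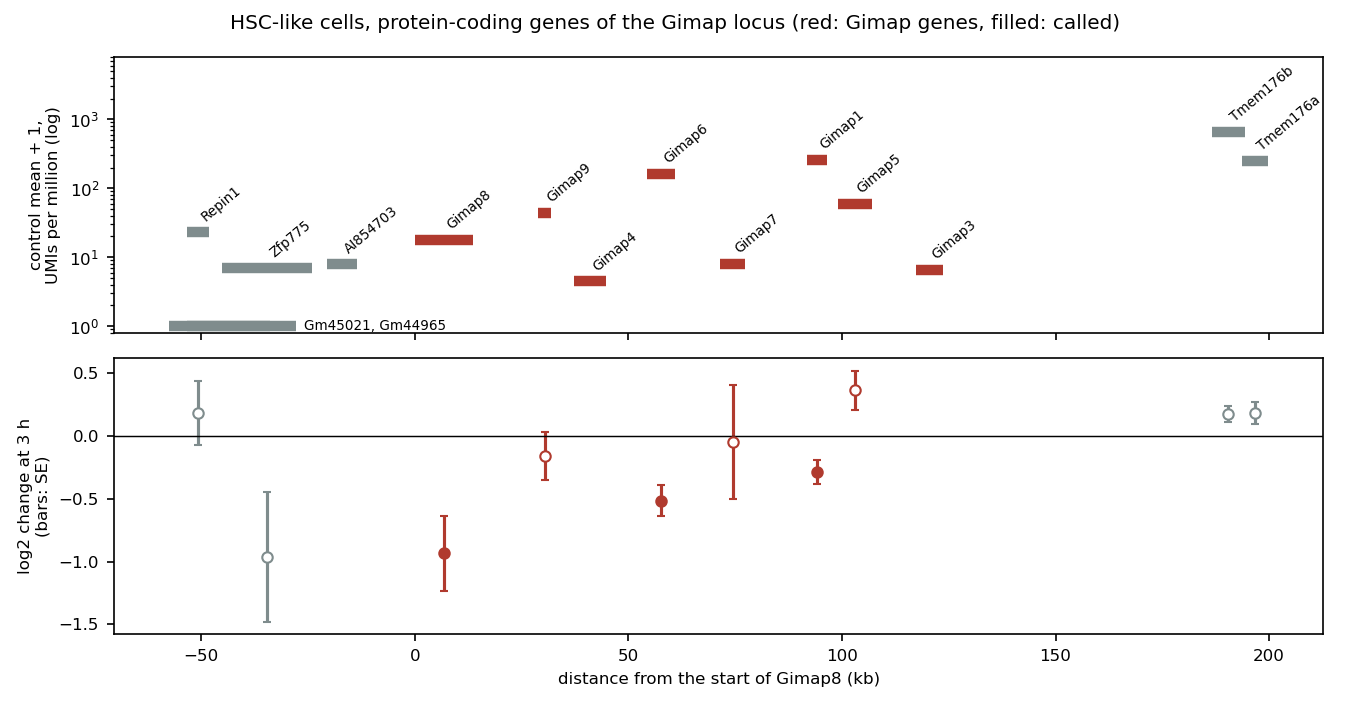
Protein-coding genes around the family in HSC-like cells by distance from the start of Gimap8 in kb, with the control mean plus 1 on a log axis (top, segments span the gene) and the log2 change at 3 h (bottom, bars are SE, filled where called). Gimap8, Gimap6 and Gimap1 lie below 0 and are filled. Zfp775, Gimap9 and Gimap7 also lie below 0 but are open, and Gimap5, Repin1, Tmem176b and Tmem176a lie above 0 and are open.

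Reported partners of GIMAP proteins and survival genes (Mcl1, Hspa8, Gsk3b, Gabarapl2, Bcl2, Bcl2l1, Bax and Bad) gave 0 of 8 calls by edgeR in HSC-like cells at each time, with medians of -0.18, -0.12 and -0.08, where 15.1%, 3.4% and 3.42% of all genes were called. Mcl1, an anti-apoptotic protein bound by Gimap5, was 0.10 and Gabarapl2 -0.04 from control at 3 h. Over the whole compartment 2 of 8 were higher at 3 h, Mcl1 and Bcl2l1 (0.20 and 0.40), where 19.7% of 12042 genes were higher. Bax, Bad and Bcl2 were lower (-0.16, -0.21 and -0.21), where 19.2% of genes were lower. The part of the class shares in these differences was not tested.

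Stem cell identity genes went in both directions in HSC-like cells at 3 h. Of 14 listed, 3 were higher, among them Ly6a (2.23), which encodes the surface protein Sca-1, and Mecom (0.51), and 2 were lower, Hlf (-0.38) and Esam (-0.70), where 10.3% of all genes were higher and 4.79% lower. At 24 h 1 was higher (Ly6a, 1.10), and at 72 h Mecom was higher and Ly6a lower. Over the whole compartment 8, 11 and 12 of the 14 were higher at 3, 24 and 72 h and 0 lower (medians 0.46, 0.53 and 0.62), where 19.7%, 14.5% and 18.9% of all genes were higher. Of 9 lymphoid priming genes 5 were tested, and Dntt, the terminal transferase of early lymphoid cells, was lower at 3 h (-1.70, adjusted p = 0.0056) and 72 h (-1.47, adjusted p = 0.0177). At 24 h Notch1, a receptor of T lineage commitment, was lower (-0.83, adjusted p = 0.0372), and the medians of the 5 were -0.49, -0.73 and -0.74.

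Gimap3 and Gimap7 were sparse, with 125 and 395 UMIs over all kept cells. In HSC-like cells Gimap7 averaged 7.01, 6.75, 6.07 and 4.47 CPM and Gimap3 5.59, 2.53, 5.34 and 3.41 in control and at 3, 24 and 72 h. Gimap7 passed the filter and was not called (0.965-fold at 3 h, 95% interval 0.511 to 1.82), and Gimap3 did not pass it.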

How the data were processed

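The authors aligned reads to mm10 with Cell Ranger 3.1.0 and deposited UMI counts per gene and cell, without normalization, with Seurat hashtag calls. The gene annotation behind the counts is not given in the sources used here. Barcodes with a single hashtag, at least 700 genes and at most 5% mitochondrial UMIs were kept. Hashtag multiplets were removed and no doublet caller was run, so doublets within a mouse remain.

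Control cells were clustered with Scanpy 1.11.5 (500 variable genes without Gimap genes, Leiden resolution 0.8) and labels were transferred by mutual nearest neighbors, which gave the same class as without correction in 91.5 to 95.3% of cells. A cluster was named when at least 2 markers of its class were among its 10 genes of largest fold, a number set after the clusters were seen, which left cluster 13 unnamed (1.15, 0.415, 0.156 and 0.211% of cells in control and at 3, 24 and 72 h). Counts were summed per mouse and tested with edgeR 4.0.16 (filterByExpr, TMM, quasi-likelihood F test) over all 16 mice under R 4.3.3, with Benjamini-Hochberg adjustment over all tested genes and a threshold of 0.05. A class needed at least 10 cells of a mouse. The study used edgeR's likelihood ratio test with a log2 limit of 1, tried as alternatives beside DESeq2 1.42.0. The tests were also run on simulated counts, and the outcome is not reported here. The smallest libraries give the least precise values. All 6 members, their neighbors within 500 kb and fixed gene lists were named, with up to 3 genes of a list by adjusted p. Members and lists were chosen with earlier results of these data known. Genes behind counts of 5 or fewer, Mcl1 and Gabarapl2 were named after their values were seen. Some listed genes are not reported here by name.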

Additional observations from a re-analysis of the deposited data

Results flagged for a closer look

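In HSC-like cells the lowest of 4 mice was flagged for Gimap8 in 2 groups. Control mouse 4 had 0 CPM against 20.8 to 23.8 in the other control mice, and mouse 2 at 72 h had 16.9 against 20.1 to 20.3. The 0 comes from 10 cells and allows up to 30.5 CPM (3 UMIs, counting error only), so it is not distinguishable from the other control mice. Over the whole compartment mouse 4 at 72 h had the highest Gimap6 level, 50.1 against 43.9 to 44.4. These are 3 of 48 groups of 4 mice examined, and chance alone marks about 1 in 20.

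The change of Gimap1 differed between HSC-like and other cells by the test of the difference itself, at -0.57 after 3 h, -0.40 after 24 h and -0.49 after 72 h (HSC-like minus other cells, log2). The other cells are a sum over classes. Myeloid progenitor-like cells made up 28.7% of kept cells in control and 16.1% at 3 h. Within MK progenitor-like cells Gimap1 averaged 119.6 CPM in control and 89.0 at 3 h. The part of the class shares in this difference was not tested.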

How the results depend on the processing

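Over the whole compartment the numbers of members called at 3, 24 and 72 h and from 3 to 24 h were 2, 4 to 5, 5 and 2 with 1 mouse left out, and 0 from 24 to 72 h. In HSC-like cells they were 1 to 3 at 3 h, 0 to 2 at 24 h, 0 at 72 h, 2 to 3 from 3 to 24 h and 0 to 1 from 24 to 72 h. For the difference between HSC-like and other cells they were 0 to 1 at each time, and for the baseline 0 to 1 (at least 4 times higher) and 2 to 3 (at least 2 times). With an absolute log2 change over 1 no member was called at any time against control, 0 from 3 to 24 h over the whole compartment and 1 in HSC-like cells.

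In HSC-like cells the count at 3 h was 1 with DESeq2 (Gimap6) and 1 in cells with an Hlf UMI (Gimap5). At 24 h it was 1 (Gimap6) with library size alone, DESeq2, only the 2 time points in the fit, labels without correction and without cells of a listed or defining marker. At 72 h it was 3 in cells with an Hlf UMI, a set for which the share of all genes called is not given here. From 24 to 72 h it was 1 (Gimap6) with library size alone, RLE factors, no filter, labels without correction and without cells of a listed or defining marker. Over the whole compartment, removing cells with any listed marker (78.3 to 90.8% of cells) left 1 at 3 h and 0 at 72 h and gave 1 from 24 to 72 h, and library size alone gave 4 from 3 to 24 h. Library size alone gave 2 at 72 h for the difference between HSC-like and other cells. At baseline 4 members were at least 4 times higher in cells with an Hlf UMI than in those without, as were 246 of 10714 genes. That contrast has a single set to exceed, whereas the main count required a member to exceed each other class. The cause of these changes was not tested.

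Directions reversed in cells with an Hlf UMI for Gimap1 (0.19 at 3 h, 0.26 at 72 h), Gimap8 (0.45 at 72 h) and Gimap5 (-0.22 from 3 to 24 h). Without cells of any listed marker they reversed for Gimap9 (-0.17 at 72 h over the whole compartment, and -0.081 at 24 h and -0.43 at 72 h in HSC-like cells), Gimap8 (0.16 at 72 h) and Gimap1 (0.036 at 72 h). Gimap9 in HSC-like cells at 72 h ranged from -0.022, without mouse 3 at 72 h, to 0.22, without control mouse 1. Library size alone moved the median of all genes in HSC-like cells at 3 h to -0.25, with 618 genes higher and 1674 lower (950 and 442 with TMM), and members kept their directions there (Gimap8 -1.14, Gimap6 -0.73, Gimap1 -0.50, Gimap5 0.15, Gimap9 -0.37). From 3 to 24 h it gave 1492 higher and 568 lower (423 and 885 with TMM), and at 72 h 166 and 176 (219 and 96 with TMM).

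Hashtag numbers only name mice, and same-numbered mice correlated between -0.22 and 0.29. With the number as a replicate block, HSC-like counts were 2 at 3 h (Gimap1 lost, -0.28, adjusted p = 0.0540), 1 at 24 h (Gimap5 lost, 0.43, adjusted p = 0.0653) and 1 from 24 to 72 h, and 5 over the whole compartment at 24 h. The block changed no other count of members.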

Other observations

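Over the 20 means of 5 classes and 4 time points, the log2 level of Gimap6 followed that of the summed other members most closely (Pearson r = 0.991), then Gimap5 (0.987), Gimap1 (0.978), Gimap8 (0.940), Gimap9 (0.850) and Gimap4 (0.847). Among 9112 genes, Msi2, an RNA-binding protein of stem cells, had the pattern most like the summed members (r = 0.985), followed by Rgs1 (0.981), a regulator of G protein signaling, Spns2 (0.976), Slc18a2 (0.976), Zfhx3 (0.975) and Zbtb20 (0.975). The points share libraries and depth, so these are descriptions.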
